A study of Homo sapiens with 4 samples.

Results

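The wide gained regions are the stretches of DNA, each at least 2500 bp long, that gained ATAC-seq signal over the controls with at least 1 of 3 anthracycline drugs. They were chosen by width alone from all regions in the authors' 3 lists of gained regions, and 954 of 100205 regions (0.952%) reached the limit. ATAC-seq reads out accessible DNA by where a transposase can insert sequencing adapters. The cells were K562, an established human leukaemia line, either left untreated or given for 4 h 10 µM Doxo (doxorubicin), 10 µM diMe-Doxo (the analog with methyl groups on the amine of its sugar) or 20 µM Acla (aclarubicin, which carries a longer sugar chain). Each group was 1 GEO sample, and each list held values for 2 treated libraries and for the same 2 control libraries. All groups thus shared 1 cell line and 1 exposure time, and nothing in the labels tells whether paired libraries are from separate cultures. The name of the cell line was taken from the labels, since the lists hold no gene names to check it against.

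Anthracyclines slide between the bases of DNA, and doxorubicin also traps topoisomerase II, which leaves breaks in both strands. Doxorubicin, its dimethyl analog and aclarubicin are all known to evict histones from chromatin, while the analog and aclarubicin are known to cause few breaks or none. In untreated cells, accessible DNA mostly lies in short stretches free of nucleosomes, and broad stretches are known at the promoters and clustered enhancers of active genes. A gained region of several kilobases can therefore be a stretch that was already open and gained reads, or one that had few reads before the drug. The values below give both kinds. The sources used here do not give how region borders were drawn.

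The wide regions ran from 2500 to 5362 bp, with a median of 2776.5 bp against 766 bp for all gained regions. Of the 954, 668 were under 3000 bp, 267 were from there to under 4000 bp, 19 reached 4000 bp and 2 reached 5000 bp. They covered 2.77 Mb, which was 3.17% of the length of all gained regions. The limit falls within a continuous range of widths, so the regions on either side of it are alike in width. The 3 members just inside it, at 2500 bp, lay on chromosome 11 at 110608200-110610700, on chromosome 12 at 3140374-3142874 and on chromosome 17 at 80332013-80334513, and all were listed for all 3 drugs. Their log2 folds with Doxo in the authors' deposited table were 2.28, 5.10 and 5.79. The 3 regions just outside, at 2499 bp, lay on chromosome 1 at 220878648-220881147, on chromosome 4 at 1215711-1218210 and on chromosome 5 at 59927012-59929511. These were also listed for all 3 drugs, with log2 folds for Doxo of 2.27, 5.22 and 5.72 in the authors' deposited table.

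Nearly all wide regions were listed for Doxo, while the lists of diMe-Doxo and Acla each held a smaller share of them. Doxo listed 914 of the 954 wide regions (95.8%), where 66.6% of all gained regions were listed for Doxo. The diMe-Doxo list held 535 wide regions (56.1%), beside 52.7% of all gained regions. The Acla list held 488 (51.2%), beside 61.2% of all gained regions. A region had to be in a list to be a member, so these shares describe the lists and were not tested. Acla was given at another dose, and its values stand beside the others without a comparison. Seen from the lists, 1.37% of the Doxo regions, 1.01% of the diMe-Doxo regions and 0.796% of the Acla regions were wide.

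Taken by the combination of drugs, 430 wide regions (45.1%) were in all 3 lists and 393 (41.2%) were in the Doxo list alone. Among narrower regions these shares were 28.5% and 29.4%. Doxo and diMe-Doxo without Acla held 70 wide regions (7.34%), beside 4.37% of narrower regions. For diMe-Doxo and Acla without Doxo there were 32 (3.35%), beside 14.7% of narrower regions. Doxo and Acla without diMe-Doxo held 21 (2.20%), beside 4.06% of narrower regions. The Acla list alone held 5 wide regions among its 13841 regions in no other list (0.0361%). The diMe-Doxo list alone held 3 among 4977 (0.0603%). The Doxo list alone held 393 among 29528, or 1.33%. Absence from a list says only that a region did not pass the authors' limits with that drug, a log2 fold of at least 1.5 and a p-value of at most 0.05.

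From 1000 bp upward, the share listed for Doxo rose with width, while the shares of the other drugs were lower in the widest bins. Under 500 bp the shares were 69.1% for Doxo, 29.99% in the diMe-Doxo list and 37.3% in the Acla list, and at 500 to under 1000 bp they were 59.1%, 53.1% and 65.3%. At 1000 to under 1500 bp, 71.2% of the gained regions were in the Doxo list, 68.7% in the diMe-Doxo list and 74.6% in the Acla list. At 2000 to under 2500 bp, just under the limit, the shares in that order were 89.8%, 65.8% and 63.0%. At 2500 to under 3000 bp they were 95.2%, 58.4% and 52.7%. At 3000 bp and over they were 97.2%, 50.7% and 47.6%. The Doxo share thus rose from the 500 bp bin upward without a step at the limit, whereas the shares of the other drugs were highest from 1000 to under 2000 bp and lower on either side.

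**Figure D1:**
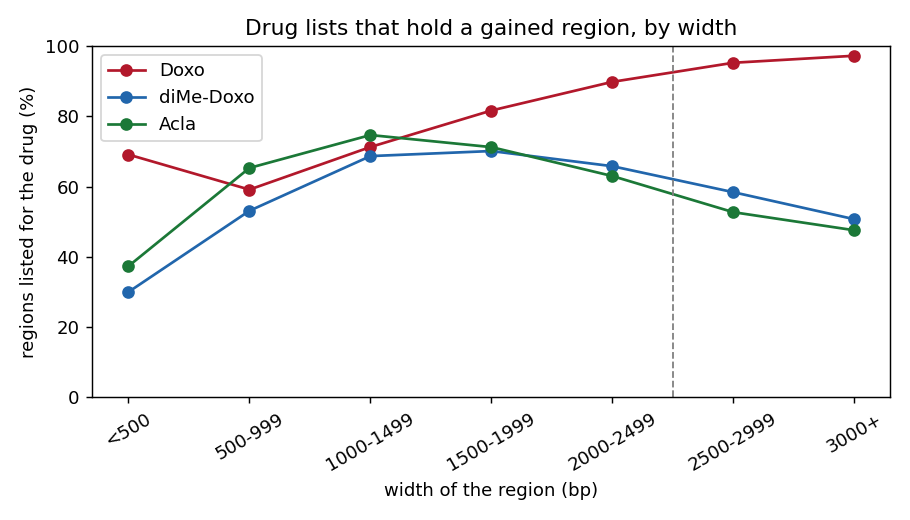
Share of gained regions (%) that each drug's list holds, by width of the region in bp, with the limit of 2500 bp as a dashed line. The Doxo share reaches 97.2% at 3000 bp and over, where the diMe-Doxo and Acla shares are 50.7% and 47.6%.

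Wide regions more often had signal in the untreated cells than narrower ones. The median wide region held 13 reads in control library 1 and 9 reads in control library 2, and the middle 50% of regions ran from 4 to 26 and from 1 to 26 reads. The narrower regions had a median of 1 read in each. Width adds reads, so reads were also summed and divided by length: 7.05 and 6.63 control reads per kb over the wide regions, against 3.59 and 3.55 over the narrower ones. At 1500 to under 2500 bp the sums were 4.17 and 3.69 reads per kb, and under 500 bp they were 4.78 and 5.38. Of the narrower regions, 58.9% stood at 1 read, the lowest value, in control library 1 and 61.9% in control library 2. The authors had called a control peak in both libraries at 480 wide regions (50.3%), in 1 library at 171 (17.9%) and in neither at 303 (31.8%). Among narrower regions, 5.20% had a peak in both controls and 86.5% had none. All of these are descriptions, because low control signal helped a region into a list.

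The wide regions of the Doxo list alone held more control reads than those of all 3 lists. Wide regions gained with Doxo alone had median control reads of 26 and 28, and 284 of the 393 (72.3%) had a peak in both controls. Wide regions gained with all 3 drugs had medians of 8 and 4 reads, and 129 of the 430 had a peak in both controls. Summed and divided by length, control reads per kb were 11.5 and 12.3 for Doxo alone and 3.30 and 2.26 for all 3 drugs. The order was the same among narrower regions, with 6.25 and 7.14 for Doxo alone and 2.37 and 2.07 for all 3 drugs. Of those narrower regions, 11.1% and 2.85% had a peak in both controls. The regions of Doxo and diMe-Doxo without Acla lay between, with medians of 19 and 9 reads and both control peaks at 47 of 70. Seen the other way, of the 480 wide regions with a peak in both controls, 97.7% were in the Doxo list, 38.5% in the diMe-Doxo list and 30.6% in the Acla list. Of the 303 with no control peak, 92.7%, 76.2% and 76.9% were. Among the 5165 narrower regions with a peak in both controls, the lists in that order held 4493, 1685 and 1357. Among the 85817 narrower regions with none, they held 54808, 46648 and 55712.

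The control counts were uneven between the 2 libraries. A count of 1 read is the lowest value in the lists. It may stand for no read, or for a lower limit set when the values were made, for example after a background was subtracted, and the sources used here do not say which. Control reads and folds at such regions carry that doubt. Control library 1 was at 1 read in 176 wide regions (18.4%) and control library 2 in 298 (31.2%), yet both were at 1 read in only 16. At 316 wide regions (33.1%), 1 control library stood at 1 read while the other held 10 or more. At 115 wide regions a peak had been called in both controls although at least 1 of them held 1 read. The plot of the control reads shows these regions as a line along each axis, apart from the cloud in which both libraries had reads.

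**Figure D2:**
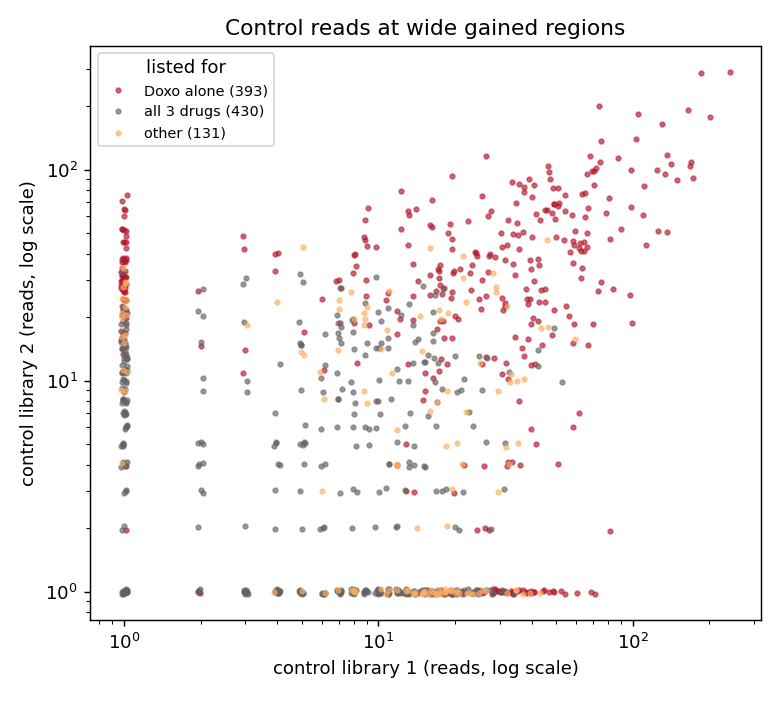
Reads in control library 1 against control library 2 at the 954 wide regions, both on log axes, coloured by the lists that hold the region and with points shifted slightly so that equal counts can be seen. Regions of Doxo alone fill the upper right, up to 246 and 288 reads, and the lines at 1 read hold 458 regions.

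The membership figures were therefore taken again without the wide regions at 1 read in either control, an alternative added after seeing the data. In the 496 wide regions with at least 2 reads in both controls, 98.0% were in the Doxo list, 44.4% in the diMe-Doxo list and 37.7% in the Acla list, and 53.4% were listed for Doxo alone. In the other 458, the shares were 93.4%, 68.8% and 65.7%, and 27.9% were listed for Doxo alone. The authors' median log2 fold with Doxo was 2.92 in the first set and 3.76 in the second. The part that the lowest counts played in a region's listing was not tested.

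Median signal per kb in the treated libraries was higher in wide regions than in the pool of all narrower regions with each drug. In the authors' deposited signal, which is reads times 1 factor per library, the median wide region of the Doxo list had 79.3 per kb in library 1 and 84.7 per kb in library 2. Narrower regions of that list had 38.1 and 40.7. In the diMe-Doxo list the medians were 47.3 and 38.2 per kb at wide regions and 32.5 and 27.8 at narrower ones. In the Acla list they were 48.8 and 46.2 against 42.9 and 34.7. In every library of the 3 lists the wide median stood above the narrower median, while the ranges over regions overlapped. The narrower regions were not alike, and those under 500 bp had medians of 52.1 and 55.0 per kb in the Doxo list. In the diMe-Doxo list they had 44.5 and 40.5, so library 2 stood above its wide median and library 1 below. In the Acla list they had 49.5 and 40.9, with library 1 above its wide median and library 2 below. Within the Doxo list, the library 1 median per kb was lowest at 1000 to under 1500 bp (30.8), reached 54.0 at 2000 to under 2500 bp and was 88.3 at 3000 bp and over.

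The share of reads that fell in wide regions was close between the treated and the control libraries of each list. Wide regions held 325476 and 356840 reads in the Doxo libraries, which was 7.39% and 7.38% of the reads in all regions of that list. The diMe-Doxo libraries had 173710 and 140041 reads there, or 4.04% and 3.96%. The Acla libraries had 194778 and 177667, or 2.68% and 3.03%. In the control libraries the shares were 7.69% and 7.13% over the Doxo list, 4.22% and 3.23% over the diMe-Doxo list and 3.198% and 2.51% over the Acla list. Wide regions made up 4.36%, 2.96% and 2.41% of the length of these lists. The median wide region had 310 and 346.5 Doxo reads, against 37 and 40 at narrower regions. The median SD of log2 signal between the 2 libraries of a group was 0.11 with Doxo and 0.16 with Acla at wide regions. At narrower regions it was 0.22 and 0.26. With diMe-Doxo the SD was about alike, 0.20 at wide and 0.21 at narrower regions. There, library 1 stood above library 2 by a median log2 of 0.28 at wide and 0.23 at narrower regions.

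At wide regions, log2 folds over control in the authors' deposited table had medians of 3.30 in the Doxo list, 2.69 in the diMe-Doxo list and 2.70 in the Acla list, against 2.95, 2.52 and 2.62 at narrower regions. A deposited false discovery rate (FDR) of at most 0.01 was held by 70.2%, 59.8% and 58.6% of the wide regions in these lists, and by 48.6%, 38.0% and 42.7% of the narrower ones. With more reads a fold of the same size reaches a lower FDR, so the 2 sets of shares are not a comparison of size. In each list the median log2 fold of the wide regions fell with the number of control peaks. In the Doxo list it was 4.15 with none, 3.49 with 1 and 2.82 with both. The diMe-Doxo list had 3.08, 2.73 and 2.32 in that order. For Acla the medians were 3.03, 2.745 and 2.29. Narrower regions of the Doxo list showed a fall too, from 3 to 2.83 and 2.53. Each fold is taken over the control signal, so a higher control by itself lowers it.

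At the 430 wide regions gained with all 3 drugs, the values of the drugs stand side by side at the same places, without a comparison of Acla with the others. For this, each list was put on the scale of the controls in the Doxo list. The median Doxo signal was 55.2 and 60.1 per kb in the 2 libraries. The diMe-Doxo medians were 30.4 and 24.7, and those of Acla, at its higher dose, 26.7 and 24.98. At the 28305 narrower regions in all 3 lists, the medians were 25.3 and 25.9 with Doxo, 25.1 and 21.99 with Acla and 23.1 and 19.4 with diMe-Doxo. The median log2 folds of these wide regions in the authors' deposited table were 3.92 for Doxo, 2.86 for diMe-Doxo and 2.76 in the Acla list.

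**Figure D3:**
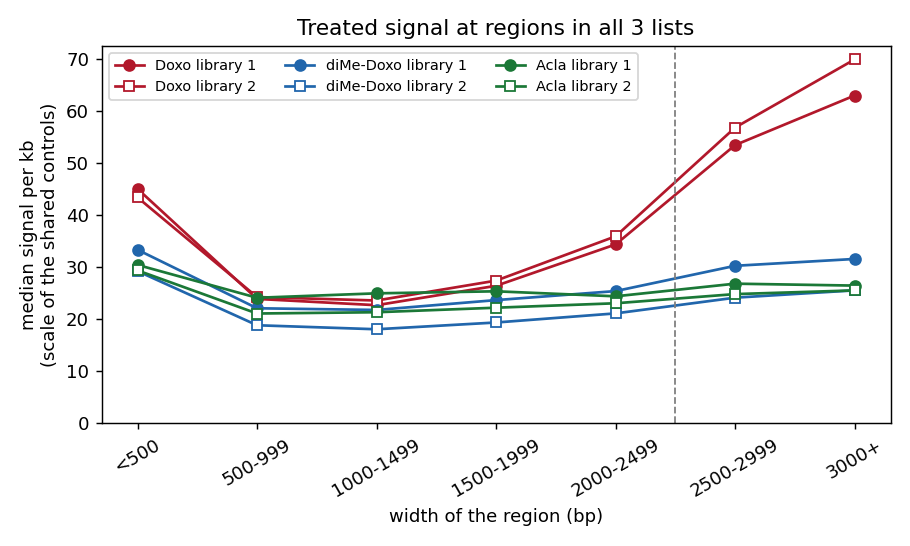
Median signal per kb in each treated library at regions in all 3 lists, by width in bp, on the scale of the shared controls. From 1000 bp upward the Doxo libraries climb from 22.7 and 23.6 to 63.0 and 69.96 at 3000 bp and over, while the diMe-Doxo and Acla libraries stay between 18.1 and 31.6.

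Doxo and diMe-Doxo were given at the same dose for the same time, and differ in structure only by the methyl groups on the amine, so their treated libraries were tested against each other. The wide regions gained with both were more often higher than lower with Doxo. The test was edgeR's quasi-likelihood test on recovered reads over all 33140 regions in both lists, with Benjamini-Hochberg adjusted p of at most 0.05 as the limit, and 500 of these regions were wide. Signal was higher with Doxo at 314 of the 500 (62.8%), where 28.8% of all shared regions were. It was lower with Doxo at 18 (3.60%), where 2.84% of all shared regions were, and 168 passed in neither direction. The median log2 difference was 0.91 at the wide regions and 0.28 over all shared regions. It was above 0 at 82.4% of the wide regions, and 238 were at least 2-fold higher with Doxo and 6 at least 2-fold lower.

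The scaling of the libraries shifted these values. With TMM factors, which centre the shared regions, the median over all shared regions turned to -0.05, while that over the wide regions was 0.57 and kept its direction. The calls were then 294 higher and 73 lower among the 500 wide regions, beside 23.6% higher and 10.6% lower over all shared regions. The count of higher calls was 247 of the 500 when Doxo replicate 2 was left out. The count of lower calls was 8 without that library and 7 when diMe-Doxo replicate 1 was left out. The regions had to be gained in both lists to be tested, and the 2 lists share their controls.

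The share of higher calls and the median difference were larger in wider bins from 1500 bp upward. The share called higher with Doxo was 26.4% at 1000 to under 1500 bp, 35.1% at 1500 to under 2000 bp, 48.1% at 2000 to under 2500 bp, 62.2% at 2500 to under 3000 bp and 64.5% at 3000 bp and over. The median log2 difference over these bins went from 0.19 to 0.25, 0.50, 0.91 and 0.92. With TMM factors it went from -0.13 to -0.08, 0.17, 0.57 and 0.59, so the direction of the first 2 bins turned, and lower calls at 1000 to under 1500 bp went from 386 to 1450. Regions under 500 bp had a share of 31.3% and a median of 0.50, so the relation with width was not in 1 direction over the whole range.

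**Figure D4:**
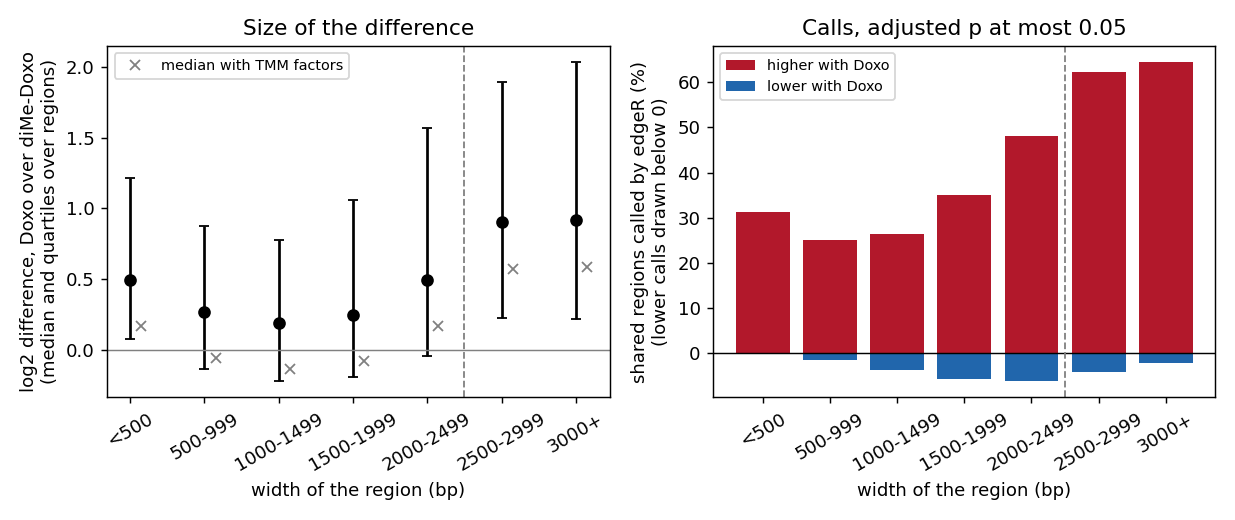
Left, median log2 difference of Doxo over diMe-Doxo with quartiles over regions, by width in bp, with crosses for TMM factors; right, share of shared regions (%) called higher or lower with Doxo by edgeR. The median is 0.91 at 2500 to under 3000 bp (0.57 with TMM factors), and 62.2% of those regions are called higher.

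Wide regions hold more reads, and the number of reads moved with the calls. Summed over the 4 treated libraries, the median was 1117 reads at the shared wide regions and 218 at the narrower ones. With the wide regions cut by this sum into 4 sets of about equal size, the share called higher with Doxo was 23.2%, 53.2%, 81.5% and 93.6% from the fewest to the most reads. In the set with the fewest reads, 29 were higher and 16 lower with Doxo and the median log2 difference was 0.02. With TMM factors that set turned to 24 higher and 46 lower, with a median of -0.31. Narrower regions in the same 4 ranges of reads had shares of 25.9%, 78.5%, 89.3% and 100%, over 31241, 951, 373 and 75 regions. The share rose with reads in both. The sum holds the Doxo reads themselves, and in the lowest range the median was 575 reads for wide and 211 for narrower regions. The lowest range therefore does not compare wide and narrower regions at equal depth. In the higher ranges the medians were closer, at 947.5 and 894, 1351 and 1271, and 1934 and 1831 reads. There the share called higher was lower at wide than at narrower regions, the reverse of the order without this cut (62.8% and 28.3%). The median log2 differences there were 0.61, 1.53 and 1.82 at wide and 1.48, 1.82 and 1.84 at narrower regions. The part of depth in the calls was not tested.

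Control peaks and the third drug divided the shared wide regions further. The share called higher with Doxo was 63.0% at wide regions with no control peak (median log2 difference 1.27), 57.5% at those with 1 (0.68) and 65.9% at those with both (0.86). At narrower regions it was 27.0%, 35.6% and 45.0%. Of the 70 wide regions not listed for Acla, 59 were higher with Doxo and 0 were lower, with a median of 1.46. Of the 430 also listed for Acla, 255 were higher and 18 lower, with a median of 0.80. The same split among narrower regions gave 50.1% higher where Acla did not list the region and 24.99% where it did. Among the 211 shared wide regions with at least 2 reads in both controls, 146 were higher and 2 lower with Doxo, with a median of 1.05. Among the other 289, 168 were higher and 16 lower, with a median of 0.79.

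The wide region with the largest difference lay on chromosome 12 at 29943974-29947090. It held 1 and 2 control reads, 539 and 635 reads with Doxo, 270 and 214 with Acla and 78 and 60 with diMe-Doxo. The log2 difference of Doxo over diMe-Doxo was 4.37 ± 0.24 (SE, 2 libraries a group; edgeR adjusted p = 7.91e-72). With TMM factors it was 4.04 (edgeR adjusted p = 5.65e-13), so the size of the p-value depends strongly on the scaling. No control peak had been called there. The Doxo libraries lay apart from the diMe-Doxo libraries on the common scale, which follows from the choice of the region by this difference. The next 4 were on chromosome 17 at 60214963-60218111 (3.81), on chromosome 16 at 3777956-3781621 (3.77), on chromosome 10 at 94820241-94823352 (3.70) and on chromosome 15 at 41793568-41797050 (3.61). All 5 were listed for all 3 drugs, had 7 or fewer reads in each control and were 3111 to 3665 bp wide.

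The wide region with the largest difference the other way lay on chromosome 8 at 116036561-116039194. It held 2 and 1 control reads, 23 and 13 reads with Doxo, 174 and 122 with Acla and 146 and 119 with diMe-Doxo. Its log2 difference was -1.59 ± 0.34 (SE, 2 libraries a group; edgeR adjusted p = 2.15e-05). No peak had been called there in either Doxo library, although the region is in the Doxo list. The next was on chromosome 11 at 2166366-2168979 (-1.06), with 48 and 48 Doxo reads against 282 and 208 diMe-Doxo reads.

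The other 3 called regions with the lowest values lost their call, with about the same difference in most cases, when 1 library was left out. On chromosome 15 at 97401189-97403952 the log2 difference was -1.02, which became -0.93 with Doxo replicate 2 left out (edgeR adjusted p = 0.0863) and -0.73 with diMe-Doxo replicate 1 left out (edgeR adjusted p = 0.258). On chromosome 1 at 4652333-4654867 it was -1.02, and -0.92 without Doxo replicate 2 (edgeR adjusted p = 0.0551). On chromosome 2 at 229552903-229555755 it was -1.01, and -0.90 without Doxo replicate 2 (edgeR adjusted p = 0.0619). The 5 wide regions lowest with Doxo held 13 to 56 reads per Doxo library, whereas the 5 highest held 453 to 778.

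The 5 widest regions show the range of starting states. The widest, with 5362 bp, lay on chromosome 22 at 19509368-19514730 and belonged to the Doxo list alone. A peak had been called there in both controls, with 246 and 288 control reads and 1578 and 1725 Doxo reads. Its log2 fold in the authors' deposited table was 1.63, close to their limit. The next, 5231 bp on chromosome 4 at 100570438-100575669, was gained with all 3 drugs. It held 50 and 18 control reads, 616 and 732 reads with Doxo, 891 and 800 with Acla and 1176 and 993 with diMe-Doxo, and the deposited log2 folds were 3.30 for Doxo, 2.65 for diMe-Doxo and 1.78 in the Acla list. Doxo over diMe-Doxo was 0.60 ± 0.19 there (SE, 2 libraries a group; edgeR adjusted p = 7.65e-03), and 0.27 with TMM factors.

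The other 3 of the widest regions had a log2 fold above 2.5 with Doxo. On chromosome 8, 56362283-56367167 (4884 bp) was listed for Doxo and diMe-Doxo, with 46 and 47 control reads, 672 and 725 Doxo reads and 864 and 680 diMe-Doxo reads. On chromosome 20, 61636804-61641439 (4635 bp) was listed for Doxo alone, with 19 and 54 control reads against 411 and 412. On chromosome 22, 20457409-20461997 (4588 bp) was listed for Doxo alone with 50 and 31 reads, and stood at 1 read in both controls although a peak had been called in each. It had the lowest control reads per kb of all members, followed by 74452990-74456384 and 18478993-18482180 on chromosome 16, which also stood at 1 read in both controls. At these 3 places the deposited log2 folds of 4.34, 4.15 and 4.32 with Doxo came from 31 to 50 treated reads per library over the lowest control value.

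The regions with the highest log2 fold in all 3 lists, in the Doxo list alone and in the Doxo and diMe-Doxo lists had 3 or fewer reads in at least 1 control, and a low control count itself raises a fold. On chromosome 10, 22623238-22625852 held 2 and 1 control reads and rose to 631 and 696 reads with Doxo, 112 and 137 with Acla and 200 and 162 with diMe-Doxo. Its deposited log2 folds were 7.78 in the Doxo list, 4.58 in the diMe-Doxo list and 3.54 in the Acla list, and Doxo over diMe-Doxo was 3.16 ± 0.22 (SE, 2 libraries a group; edgeR adjusted p = 4.15e-46). With TMM factors that difference was 2.83 (edgeR adjusted p = 7.17e-13). Among regions of the Doxo list alone, the highest log2 fold was 5.52, on chromosome 10 at 71904328-71906850, with 3 and 14 control reads and 723 and 818 Doxo reads. Among regions of Doxo and diMe-Doxo it was 5.62 with Doxo and 2.66 with diMe-Doxo, on chromosome 2 at 200327172-200329682, with 13 and 1 control reads. Every treated library stood above both controls at these 3 places, which follows from their choice by fold over these controls.

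The wide regions gained with Acla alone or diMe-Doxo alone had log2 folds of at most 2.87. Of the 5 listed for Acla alone, the widest (3358 bp) lay on chromosome 17 at 48354838-48358196, with 1 and 22 control reads, 305 and 351 Acla reads and a deposited log2 fold of 2.14. The one with the highest fold, 2.87, lay on chromosome 7 at 34812192-34814717, with 11 and 1 control reads and 390 and 264 Acla reads. Both thus had 1 control library at the lowest value. Of the 3 listed for diMe-Doxo alone, the widest (2909 bp) lay on chromosome 3 at 13649088-13651997, with 15 and 20 control reads, 293 and 276 diMe-Doxo reads and a log2 fold of 1.75. The one with the highest fold, 2.19, lay on chromosome 12 at 120805384-120808094, with 19 and 1 control reads. The deposited FDR was 0.0638 and 0.0673 at the chromosome 17 and chromosome 12 regions.

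Classes of 2 drugs that include Acla also held few wide regions. Of the 14667 gained regions of diMe-Doxo and Acla without Doxo, 0.218% were wide. Of the 4052 of Doxo and Acla without diMe-Doxo, 0.518% were wide. The widest of the 32 in the diMe-Doxo and Acla lists lay on chromosome 11 at 1122342-1125694, with 4 and 23 control reads, 502 and 385 diMe-Doxo reads and 405 and 587 Acla reads. The highest fold of that class was on chromosome 2 at 214247539-214250107, with log2 folds of 2.76 with diMe-Doxo and 3.52 with Acla. Of the 21 listed for Doxo and Acla, the widest lay on chromosome 1 at 17083958-17088231, with 6 and 3 control reads, 100 and 106 Doxo reads and 154 and 164 Acla reads. The highest fold of that class was on chromosome 11 at 65732363-65735347, with log2 folds of 4.69 with Doxo and 1.77 with Acla. All these folds are those of the authors' deposited table.

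The densest treated signal with Doxo lay where the controls were also dense. On chromosome 22 at 23604288-23606887, Doxo signal was 341 and 354 per kb, with 169 and 108 control reads and a log2 fold of 2.20. On chromosome 9 at 133759475-133762596 it was 305 and 330 per kb, with 173 and 89 control reads. On chromosome 22 at 22313651-22317303 it was 294 and 302 per kb, with 181 and 286 control reads. All 3 were listed for Doxo alone. The chromosome 22 regions, with the widest region above, also had the highest control reads per kb of all members. Reads at a region also follow its number of DNA copies. Copy number was not analysed here, and its part in these chromosome 9 and 22 values was not tested. With diMe-Doxo the densest wide region was on chromosome 6 at 166073615-166077201, with 144 and 128 per kb, and 153450952-153453560 on that chromosome followed with 118 and 114. The third, on chromosome 10 at 46991011-46993981, had 116 and 102 and was not listed for Acla. With Acla the densest was on chromosome 3 at 26663941-26667048, with 132 and 119 per kb. On chromosome 2, 153732681-153735240 had 127 and 104, and 155553700-155556291, which was not listed for diMe-Doxo, had 122 and 109. At 5 of these 6 densest regions for diMe-Doxo and Acla, control library 1 held 19 to 58 reads, and control library 2 stood at 1 read in 4 of the 5.

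Along the genome, wide regions made up 2.10% of the gained regions of chromosome 22 (26 of 1238), the highest share of any chromosome. Chromosome 16 had 1.504% (46 wide regions), chromosome 19 1.38% (37), chromosome 7 1.23% (89) and chromosome 1 1.13% (119). Chromosome 13 had the lowest share among chromosomes with a wide region, 0.376% (8 of 2126), and chromosome 3 followed with 0.585% (35). Over the stretch between the first and the last gained region, wide regions numbered 7.40 per 10 Mb on chromosome 22, 6.29 on chromosome 19 and 0.837 on chromosome 13. Positions are not replicates, and these shares were not tested.

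The makeup of the wide regions also differed from chromosome to chromosome. On chromosome 22, 24 of 26 were listed for Doxo alone and 2 for all 3 drugs. Of these 26, 24 lay between 17 and 25 Mb, a range chosen after the positions were seen, and 23 of the 24 were listed for Doxo alone. The 26 had median control reads of 59 and 82.5, against 13 and 9 over all wide regions, and a median log2 fold with Doxo of 2.47. K562 is known to carry a rearrangement that joins parts of chromosomes 9 and 22, and reads at a region follow the number of DNA copies as well as its accessibility. DNA copy number was not analysed here, and its part in the chromosome 22 counts was not tested. On chromosome 16, 28 of 46 wide regions (60.9%) were listed for Doxo alone. On chromosome X the order was the other way, with 25 of 35 (71.4%) listed for all 3 drugs and 6 (17.1%) for Doxo alone.

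**Figure D5:**
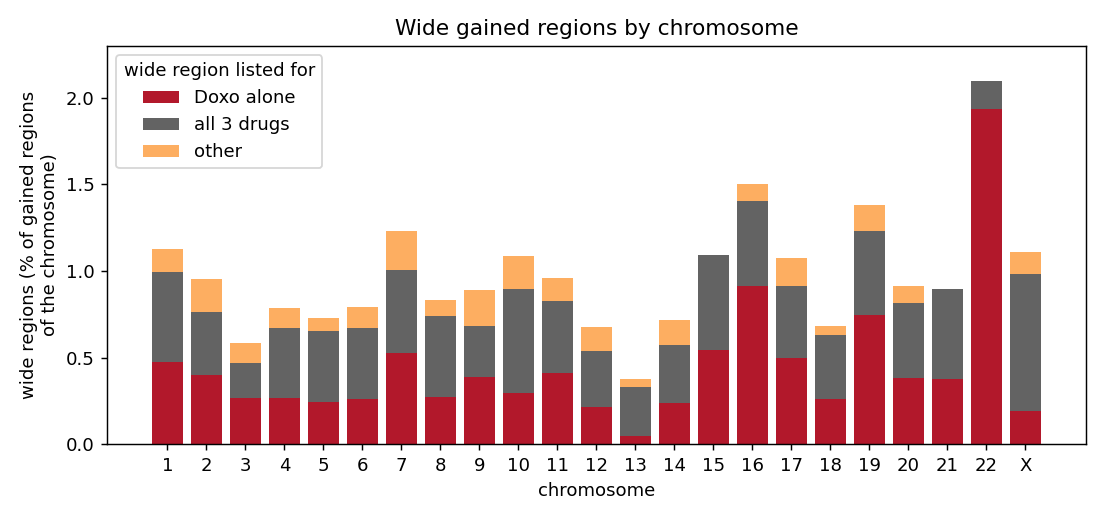
Wide regions as a share (%) of the gained regions of each chromosome, split by the lists that hold them; chromosome Y, with 0 of 8, is left out. Chromosome 22 reaches 2.10%, nearly all of it Doxo alone, and chromosome 13 has 0.376%.

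Wide regions lay in neighbourhoods about as full of gained regions as those of narrower regions. The median number of other gained regions within 500 kb was 51 for wide and 48 for narrower regions. The next gained region was 6010.5 bp away at the median for wide and 4594 bp for narrower regions, and lay within 1 kb for 16.5% and 25.5%. Consecutive wide regions on a chromosome were a median of 1.09 Mb apart, with 114 gaps under 100 kb and 16 under 10 kb. The closest pair, 2429 bp apart, lay on chromosome 22 at 23604288-23606887 and 23609316-23612180, and both were listed for Doxo alone.

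Cut into windows of 1 Mb, 672 of the 2848 windows with a gained region held a wide one, 53 held at least 3 and 12 held at least 5. The fullest window, 19 to 20 Mb on chromosome 22, held 8 wide regions, all listed for Doxo alone, among 118 gained regions. The window from 228 to 229 Mb on chromosome 1 held 7, of which 3 were listed for Doxo alone and 3 for all 3 drugs, and all 7 had a peak in both controls. The window from 9 to 10 Mb on chromosome 1 also held 7, of which 0 were listed for Doxo alone, 6 were listed for all 3 drugs and 1 had a peak in both controls. The windows with 7 wide regions thus differed in the lists that held them and in their control peaks.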

How the data were processed

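The files analysed were the authors' 3 lists of gained ATAC-seq regions, 1 per drug, without a header line. Per the submitters' processing notes, the build was GRCh37 and DiffBind was used; for the aligner, peak caller, normalization and versions, nothing is given in the sources used here. Column meanings were taken from the values. The authors deposited for each region a signal per library (2 treated, 2 control), mean levels and a fold on a log2 scale, a p-value with its FDR, and a count of the libraries with a called peak. The deposited signal is reads times 1 factor per library. Dividing each library by its smallest step gave reads, whole to within 0.1 for 100% of values. Control reads were the same in every list that holds a region (0 differing). Per library, listed regions held 3534855 to 7266289 reads after treatment and 120492 to 253175 in controls; full depth is unknown. Coordinates are those of the lists, and it is not known if starts count from 0 or 1.

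The 3 lists were joined by position (0 partial overlaps), and regions of at least 2500 bp were kept. Only gained regions are in the lists, so regions that lost signal were not analysed here. Values per kb are signal or reads over width. Doxo was compared with diMe-Doxo by edgeR's quasi-likelihood test on recovered reads of all shared regions, with Benjamini-Hochberg adjustment. The authors' factors were rescaled by the same constant for every library of a list, which matched the controls between lists on average. Signal per control read was 1.44 and 1.39 in the Doxo list and 2.41 and 2.03 in the diMe-Doxo list. The control libraries were therefore not each made equal between lists. The p-values measure only the spread between the libraries, which may be technical. Each SE of a log2 difference is that difference, without its sign, over the square root of the test's F statistic. It therefore rests on a spread estimated with all shared regions and not on the libraries of 1 region alone. Counts were not modelled for Acla, which had another dose. Alternatives were other widths, stricter limits, TMM factors, a filter on low reads, DESeq2, limma and leaving out each library.

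Regions named are the 5 widest, the widest and the highest fold of each drug combination, 3 just inside and 3 just outside the limit, the 3 lowest and 3 highest in control reads per kb, the 5 highest and 5 lowest called differences, the 3 densest per list, and the fullest windows. Members, lists and rules were chosen with earlier results of these data known. A gene annotation and sequence of the build were not used here, so genes are not named. Tools were edgeR 4.0.16, limma 3.58.1 and DESeq2 1.42.0 in R 4.3.3, and pandas 2.3.3 and numpy 2.4.6 in Python 3.11.15, with figures by matplotlib 3.10.9.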

Additional observations from a re-analysis of the deposited data

Results flagged for a closer look

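The difference between Doxo and diMe-Doxo passed edgeR's quasi-likelihood test (Benjamini-Hochberg adjusted p of at most 0.05) at 314 shared wide regions in the direction of Doxo and at 18 in the direction of diMe-Doxo, of 500 tested. Over all shared regions the shares were 28.8% and 2.84%. With TMM factors the wide counts were 294 and 73, beside 23.6% and 10.6% over all shared regions. These are differences between 2 drugs in the same contrast over the same controls, tested directly between their treated libraries. Among the named regions, the log2 difference of Doxo over diMe-Doxo was 4.37 at 29943974-29947090 on chromosome 12, 3.81 at 60214963-60218111 on chromosome 17, 3.77 at 3777956-3781621 on chromosome 16, 3.70 at 94820241-94823352 on chromosome 10 and 3.61 at 41793568-41797050 on chromosome 15. It was -1.59 at 116036561-116039194 on chromosome 8, -1.06 at 2166366-2168979 on chromosome 11, -1.02 at 97401189-97403952 on chromosome 15, -1.02 at 4652333-4654867 on chromosome 1 and -1.01 at 229552903-229555755 on chromosome 2.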

How the results depend on the processing

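At a width of at least 2000 bp, 2837, 1944 and 1837 wide regions were listed for Doxo, diMe-Doxo and Acla, 35.5% had a peak in both controls and 46.5% in neither, and median control reads were 2.79 per kb (mean of both libraries). Median signal per kb was then 64.4 with Doxo and 44.3 with Acla, 909 regions were higher and 95 lower with Doxo than with diMe-Doxo, and wide regions made up 4.77% of the gained regions of chromosome 22 and 1.65% of those of chromosome 13. At 3000 bp the lists held 278, 145 and 136, 58.4% had a peak in both controls and 24.8% in neither, Doxo signal was 93.7 per kb, 89 regions were higher and 3 lower, and the chromosome shares were 1.21% and 0.141%. These settings change which regions count as wide. Under stricter limits (log2 fold 2 or more, FDR 0.01 or less), the diMe-Doxo list held 310 and the Acla list 281 wide regions, while 43.8% had a peak in both controls and 38.2% in neither. With at least 2 reads in both controls, 486, 220 and 187 were listed, and 146 were higher and 2 lower with Doxo. That setting and limma on log2 signal (313 higher, 18 lower) were chosen after seeing the data. On the control scale of the Doxo list, median signal was 27.4 per kb with diMe-Doxo and 25.5 with Acla. The count lower with Doxo was 73 with TMM factors and 45 with DESeq2 (265 higher); the cause was not tested. Leaving out 1 library at a time gave 247 to 335 higher and 7 to 26 lower; the library left alone in its group is then assumed to vary like the other group. The filter of 20 reads summed removed no wide region. The 10 named differences kept their sign in all 8 settings. They were chosen as the most extreme calls of the main fit on the same reads, and the filter left their values unchanged.

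No paired analysis was possible because the lists carry no replicate labels and each group is 1 GEO sample. The alternatives for gene starts were not run, since no annotation of the build was used here. Counts of 1 read in a control limit the precision of every fold over such a control, and intervals on counts would cover counting error only.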
